A study of Mus musculus with 6 samples.

Results

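The small leucine-rich proteoglycans are secreted matrix proteins built from leucine-rich repeats, most of which carry glycosaminoglycan chains, and 10 genes of this family that are known from tendon were chosen by symbol: Dcn, Bgn, Fmod, Lum, Kera, Ogn, Prelp, Omd, Aspn and Podn. Below, the family and its members mean these 10 genes. All 10 were found among the 24411 genes of the table, and all 10 had enough counts to be tested. RNA-seq measured them in Achilles tendons of mice of strain C57BL/6, all 18 weeks old. The mutant group, called Piezo1 GOF, holds 3 libraries of genotype Scx-Cre/Piezo1 GOF, in which Cre recombinase is under the control of Scx, a gene active in tendon cells, and Piezo1, a mechanically gated cation channel, carries a gain-of-function allele. It is set against 3 WT libraries, whose labels name neither Cre nor the allele. The design compares tendon RNA of both genotypes. The labels do not say that the libraries came from separate animals, nor whether animals were pooled, so the spread behind each p-value is that between these libraries and may be technical.

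In tendon these proteins sit on the surface of collagen fibrils, where they regulate how fibrils assemble, fuse and are spaced. Several of them also bind growth factors such as TGF-beta and hold them in the matrix. The family is divided by sequence into classes. Decorin (Dcn), biglycan (Bgn) and asporin (Aspn) form class I, whose first pair carries chondroitin or dermatan sulfate. Fibromodulin (Fmod), lumican (Lum), keratocan (Kera), Prelp and osteomodulin (Omd) form class II, several of which carry keratan sulfate. Osteoglycin (Ogn) belongs to class III and podocan (Podn) to a later, non-canonical class.

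By position, 8 of the 10 genes stand in 3 clusters of the mm10 genome. Dcn, Lum and Kera lie within 134.1 kb on chromosome 10 (97479609 to 97613692), all on the plus strand. Aspn, Omd and Ogn lie within 80.1 kb on chromosome 13 (49544443 to 49624501), again on the plus strand, inside the span of the minus-strand gene Cenpp. Prelp, on the minus strand, and Fmod, on the plus strand, lie within 138 kb on chromosome 1 (133910304 to 134048277). Podn is on chromosome 4 (minus strand, 108014791 to 108096445) and Bgn on chromosome X (plus strand, 73483602 to 73495933). The 250 bases before the transcription start of the chromosome 13 neighbours are shown because these 3 genes, side by side and read in the same direction, differed most among themselves in the values that follow. They are RefSeq sequences of build GRCm38.p6 on the plus strand, and capitals mark E-boxes (CANNTG, the letters that basic helix-loop-helix factors such as Scleraxis bind) and TATA boxes (TATAAA), each searched on both strands.
Aspn, chr13:49544193-49544442: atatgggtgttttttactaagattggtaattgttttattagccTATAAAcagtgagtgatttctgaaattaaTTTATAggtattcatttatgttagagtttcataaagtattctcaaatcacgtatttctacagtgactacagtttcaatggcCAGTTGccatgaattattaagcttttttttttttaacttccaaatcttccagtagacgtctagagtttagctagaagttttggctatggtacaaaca
Omd, chr13:49582212-49582461: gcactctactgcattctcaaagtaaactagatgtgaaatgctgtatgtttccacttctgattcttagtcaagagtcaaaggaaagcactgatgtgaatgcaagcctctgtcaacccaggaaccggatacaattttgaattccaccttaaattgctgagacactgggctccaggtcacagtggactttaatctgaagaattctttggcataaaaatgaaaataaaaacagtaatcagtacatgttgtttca
Ogn, chr13:49607765-49608014: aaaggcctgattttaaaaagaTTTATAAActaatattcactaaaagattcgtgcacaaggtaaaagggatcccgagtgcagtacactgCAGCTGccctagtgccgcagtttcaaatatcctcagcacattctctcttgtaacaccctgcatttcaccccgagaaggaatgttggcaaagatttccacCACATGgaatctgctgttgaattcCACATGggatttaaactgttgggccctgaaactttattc
The window of Aspn held 1 E-box and 2 TATA letters, that of Omd none of either, and that of Ogn 3 E-boxes and 2 TATA letters that overlap each other. Over all 32851 promoter windows of this length in the same table, 66.2% held an E-box and 12.4% a TATA box. Windows were listed for 8 of the 10 genes, 5 of which held an E-box and 2 a TATA box. A match says only that these letters occur there.

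Total counts per library lay between 8131527 and 17180856. The Piezo1 transcript was at 178, 128 and 152 CPM (counts scaled to library size, with TMM factors) in Piezo1 GOF replicates 1 to 3 and at 144, 115 and 103 CPM in WT replicates 1 to 3, and the groups overlapped, so this value does not check the genotype. All 8 tenocyte markers used to check the tissue were detected in every library, with a summed level of 18743 to 28511 CPM in Piezo1 GOF and 2357 to 9483 CPM in WT. WT replicate 2 stood apart with the highest share of skeletal muscle markers (17.2% of counts) and the lowest type I collagen, and WT replicate 1 with Schwann cell markers at 0.398% of counts, against 0.0148% to 0.0218% in the other WT libraries and 0.0480% to 0.0642% in Piezo1 GOF. The 27 muscle markers made up 8.02%, 3.02% and 7.35% of all counts in Piezo1 GOF replicates 1 to 3 and 9.56%, 17.2% and 14.7% in WT replicates 1 to 3 (two-sided exact permutation p = 0.1, the smallest that 3 against 3 can give). This share was lower in every mutant library. The part of muscle in the results was not tested beyond a fit with the mean log2 CPM of these markers as a covariate and another fit without these markers. In RNA from whole tendon, fewer cells of a type and less RNA per cell cannot be told apart.

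As a family, the proteoglycan genes had a higher summed level in every mutant library than in any WT library. Their summed level was 13714, 27832 and 16979 CPM in Piezo1 GOF replicates 1 to 3 and 8329, 3877 and 5887 CPM in WT replicates 1 to 3. The mean was 19508 ± 7391 CPM in Piezo1 GOF and 6031 ± 2229 CPM in WT (SD, n = 3 each), with p = 0.1 by the two-sided exact permutation test. Each log2 fold change sets Piezo1 GOF over WT and is given ± SE, and adjusted p-values are those of the edgeR quasi-likelihood fit, corrected by Benjamini and Hochberg over 13466 genes. Of the 10 genes, 8 had a positive and 2 a negative log2 fold change, with a median of 1.08 against -0.0045 for all tested genes. By the adjusted test 0 of 10 passed in either direction, with adjusted p between 0.0926 and 0.931, and over all genes 0.0149% passed as higher and 0% as lower. At an unadjusted p under 0.05, 6 of 10 were higher and 0 lower, against 10.2% and 9.59% of all genes. The genotypes did not overlap for 7 of the 10, all higher, against 13.6% of all genes. The 10 genes and the lists below were chosen with earlier results of these data known, so such counts are descriptions, not tests. DESeq2 called 3.73% of genes higher, among them 5 of the 10, Dcn, Omd, Ogn, Prelp and Fmod. limma voom called 0.72% of genes higher, with Dcn alone of the 10, and edgeR with no filter on low counts 0.767%, with Omd alone. Without WT replicate 1, edgeR called 1.22% of genes higher and 0 of the 10, and 8 of the 10 had an unadjusted p under 0.05 as higher, against 13.1% of all genes. Without WT replicate 2 these were 5 of the 10 and 7.03% of all genes.

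**Figure D1:**
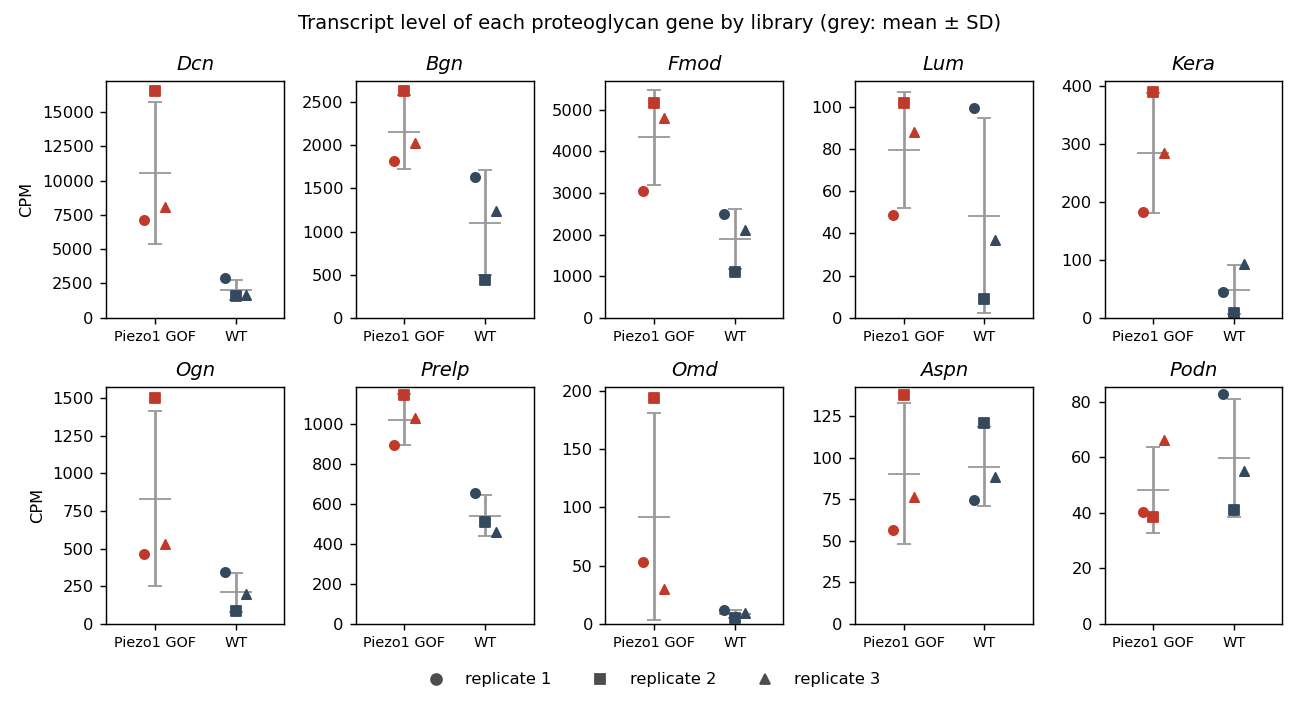
Level in CPM of each of the 10 genes in each library (symbols are replicate numbers, grey bars the mean ± SD of 3 libraries; linear axes starting at 0). The Piezo1 GOF libraries lie above all WT libraries for Dcn, Bgn, Fmod, Kera, Ogn, Prelp and Omd, while Lum, Aspn and Podn overlap.

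In class I, decorin differed most and asporin least. Dcn, which encodes the main proteoglycan bound along tendon collagen fibrils, was at 7117, 16510 and 8060 CPM in Piezo1 GOF replicates 1 to 3 and at 2891, 1569 and 1615 CPM in WT replicates 1 to 3. Every mutant library was above every WT library, and the mutant libraries spread 2.32-fold among themselves. The log2 fold change was 2.38 ± 0.57, or 5.22-fold (edgeR adjusted p = 0.114), while the adjusted p was 2.11e-07 with DESeq2 and 0.0445 with limma voom with quality weights. Bgn, the closest relative of Dcn and likewise a collagen and TGF-beta binding proteoglycan, was at 1815, 2639 and 2024 CPM in Piezo1 GOF and at 1636, 433 and 1234 CPM in WT. The groups did not overlap, but Piezo1 GOF replicate 1 and WT replicate 1 lay close together. Its log2 fold change was 0.97 ± 0.50 (edgeR adjusted p = 0.309). Leaving out WT replicate 2 gave 0.59 ± 0.39 (edgeR adjusted p = 0.529). Aspn, which encodes a collagen binder with a run of aspartate residues and is known as an inhibitor of TGF-beta, was at 56.7, 138 and 76.4 CPM in Piezo1 GOF and at 74.8, 121 and 88.6 CPM in WT. The groups overlapped, with the highest and the lowest library both mutant, and the log2 fold change was -0.07 ± 0.34 (edgeR adjusted p = 0.931). It was the member with the highest level of its WT group in WT replicate 2, the library in which most others were lowest.

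Among the class II genes, osteomodulin and keratocan had the largest fold changes and lumican the smallest. Omd, which encodes a keratan sulfate proteoglycan known from mineralized matrix and made by osteoblasts, was at 52.7, 194 and 29.6 CPM in Piezo1 GOF replicates 1 to 3 and at 11.7, 4.85 and 9.28 CPM in WT replicates 1 to 3. The groups were separate, but the mutant libraries differed 6.56-fold from one another, the widest spread of any of the 10 genes in Piezo1 GOF. Its log2 fold change of 3.43 ± 0.69, or 10.8-fold, was the largest of the family (edgeR adjusted p = 0.0926), and was 2.29 ± 0.41 without Piezo1 GOF replicate 2, the library with the highest value. DESeq2 called it (adjusted p = 1.26e-06), as did edgeR with no filter on low counts (0.0200). Kera, known as a keratan sulfate proteoglycan of the cornea and a marker of tendon fibroblasts, was at 182, 390 and 284 CPM in Piezo1 GOF and at 44.3, 8.56 and 92.4 CPM in WT. All mutant libraries were higher, and WT libraries differed 10.8-fold among themselves. The log2 fold change was 2.56 ± 0.71, or 5.91-fold (edgeR adjusted p = 0.142), and DESeq2 did not call it (adjusted p = 0.0581). Leaving out WT replicate 2 gave Kera 2.06 ± 0.45, and leaving out WT replicate 3 gave 3.44 ± 0.73.

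Fibromodulin, which binds collagen at a site shared with lumican and is needed for normal tendon fibrils, was at 3043, 5176 and 4796 CPM in Piezo1 GOF and at 2488, 1094 and 2100 CPM in WT (Fmod). The groups did not overlap, with the lowest mutant and the highest WT library closest to each other. The log2 fold change was 1.20 ± 0.47 (edgeR adjusted p = 0.217; DESeq2 adjusted p = 0.0167). Lum was at 49.0, 102 and 88.1 CPM in Piezo1 GOF and at 99.7, 8.81 and 37.1 CPM in WT. The groups overlapped, and WT libraries spread 11.3-fold, the widest of the family. Its log2 fold change of 0.72 ± 0.68 (edgeR adjusted p = 0.579) ranged from 0.22, with WT replicate 2 left out, to 1.81, with WT replicate 1 left out. Prelp, whose basic N-terminus binds heparan sulfate and links collagen to basement membranes, was at 893, 1146 and 1030 CPM in Piezo1 GOF and at 655, 512 and 458 CPM in WT. It was the tightest gene of the family, with 1.28-fold between the highest and lowest mutant library and 1.43-fold in WT. Its smaller log2 fold change of 0.92 ± 0.30 (edgeR adjusted p = 0.175; DESeq2 adjusted p = 0.00802) lay between 0.81 and 1.08 whichever library was left out.

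In the remaining classes, osteoglycin did not overlap between genotypes and podocan did. Ogn, also called mimecan, which regulates collagen fibril growth, was at 465, 1503 and 530 CPM in Piezo1 GOF and at 345, 85.2 and 197 CPM in WT. The groups did not overlap, with Piezo1 GOF replicate 2 well above the rest. The log2 fold change was 1.99 ± 0.61 (edgeR adjusted p = 0.165; DESeq2 adjusted p = 0.00521), and 1.27 ± 0.52 without Piezo1 GOF replicate 2. Podn, which encodes a collagen-binding protein known from the vessel wall, was at 40.2, 38.5 and 66.3 CPM in Piezo1 GOF and at 82.8, 41.0 and 55.2 CPM in WT. The groups overlapped, and the log2 fold change was -0.30 ± 0.32 (edgeR adjusted p = 0.618). Leaving out WT replicate 1 brought it to 0.018.

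**Figure D2:**
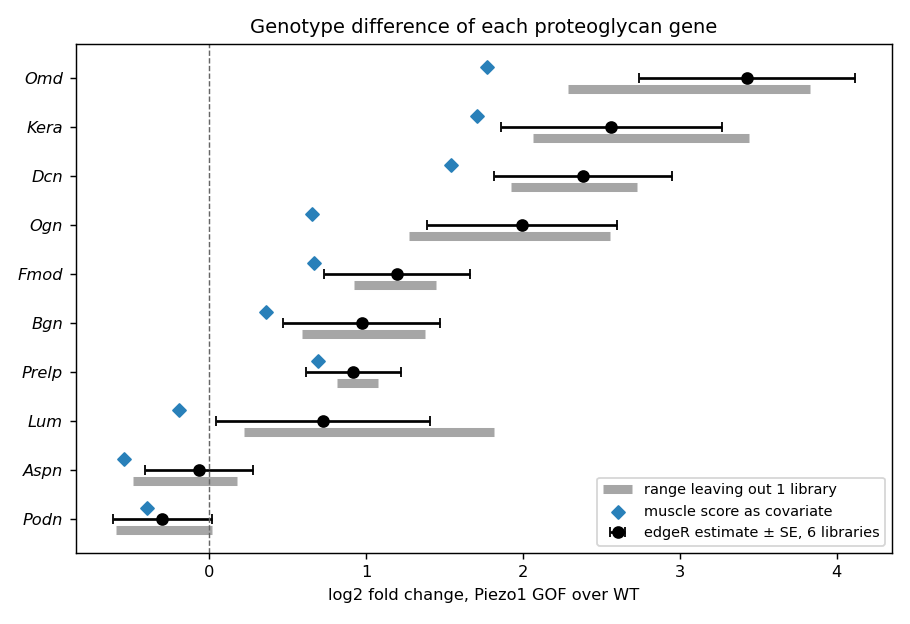
Log2 fold change, Piezo1 GOF over WT, of each of the 10 genes, with SE bars from edgeR (black), the range when each of the 6 libraries is left out (grey) and the value with a muscle score as covariate (blue). Omd, Kera and Dcn stay at or above 1.54 in all 3 displays, while the values of Lum, Aspn and Podn fall on both sides of 0.

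The chromosome 13 neighbours whose promoter windows are printed above thus had log2 fold changes of -0.07 (Aspn), 3.43 (Omd) and 1.99 (Ogn) within 80.1 kb. Cenpp, the centromere protein gene that spans all 3 on the other strand, was at 2.06 ± 0.445 CPM in Piezo1 GOF and 2.69 ± 0.641 CPM in WT (SD, n = 3 each; log2 fold change -0.40 ± 0.47, edgeR adjusted p = 0.658). Its exons share 7 bases with those of Aspn and 0 with those of Omd and Ogn. On chromosome 10, Dcn and Kera at either end of the cluster had 2.38 and 2.56, and Lum between them 0.72. On chromosome 1, Prelp and Fmod had 0.92 and 1.20. An antisense transcript overlaps 350 of the 3615 exon bases of Prelp. Since the use of strand in counting is not given in the sources used here, reads from these shared bases cannot be assigned to either transcript.

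Piezo1 GOF replicate 2 had the highest level of all 6 libraries for 9 of the 10 genes, all but Podn. WT replicate 2 had the lowest for 7 of the 10, and the lowest within WT for 8. Within Piezo1 GOF, replicate 1 was lowest for 8 of the 10. Piezo1 GOF replicate 2 also had the lowest share of muscle markers and WT replicate 2 the highest. With the mean log2 CPM of the muscle markers held as a covariate in edgeR, 0 members passed the adjusted test, 2 of 10 had an unadjusted p under 0.05 (Dcn and Omd) against 4.2% of all genes, and the median of the 10 was 0.66. In that fit Dcn had a log2 fold change of 1.54 ± 0.42 (adjusted p = 0.511), Omd of 1.77 ± 0.41 (0.371), Kera of 1.70 ± 0.77 (0.747) and Ogn of 0.66 ± 0.32 (0.763), and Lum turned to -0.20 ± 0.65 (0.978). Bgn had 0.36 ± 0.46 (edgeR adjusted p = 0.927), Fmod 0.67 ± 0.42 (0.832), Prelp 0.69 ± 0.30 (0.735), Aspn -0.54 ± 0.46 (0.885) and Podn -0.40 ± 0.40 (0.902). This covariate weights each marker alike, unlike the share of counts, and its values overlapped between genotypes. With 26 of the 27 markers at a negative log2 fold change, the fit also takes away any genotype difference that runs along with it. In the fit without the marker genes the median of the 10 was 1.06. At an unadjusted p under 0.05, 6 of the 10 were higher, against 1300 of 13439 genes. That fit leaves out these marker genes only, so it does not adjust the members for muscle content.

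**Figure D3:**
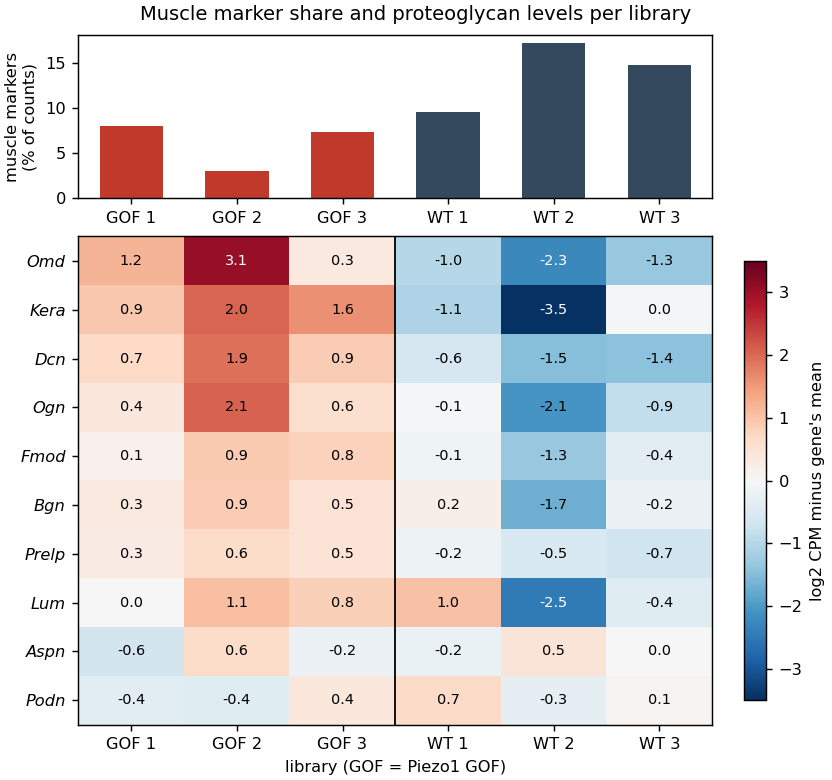
Upper panel: share of counts (%) from 27 skeletal muscle markers in each library. Lower panel: log2 CPM of each of the 10 genes minus the gene's mean over the 6 libraries, coloured red where higher and blue where lower. The column of Piezo1 GOF replicate 2, with 3.02% muscle markers, is the reddest and that of WT replicate 2, with 17.2%, the bluest.

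Per length, decorin came first of the 10 in the mutant tendons and fibromodulin in WT. Levels were divided by the length of the longest annotated transcript to give CPM per kb, since counts of long transcripts cannot be set beside those of short ones. In Piezo1 GOF the order was Dcn (2251 ± 1102 CPM per kb; SD, n = 3), Fmod (1390 ± 365), Bgn (810 ± 160.5), Ogn (324 ± 227), Prelp (283 ± 34.9), Kera (125 ± 45.5), Omd (40.9 ± 39.6), Aspn (38.8 ± 18.2), Lum (32.6 ± 11.2) and Podn (13.3 ± 4.28). In WT it was Fmod (607 ± 231 CPM per kb; SD, n = 3), Dcn (432 ± 160), Bgn (413 ± 230), Prelp (149.8 ± 28.1), Ogn (81.5 ± 50.8), Aspn (40.7 ± 10.2), Kera (21.2 ± 18.5), Lum (19.8 ± 19.0), Podn (16.4 ± 5.85) and Omd (3.83 ± 1.55). Neighbours in the mutant order had separate libraries only between Bgn and Ogn, Prelp and Kera, and Lum and Podn, and in WT only between Podn and Omd. Ranks were the same with the length of all exons joined, although this length of Bgn is 6.10 kb against 2.67 kb for its longest transcript, with which its share of the family was 8.50% in Piezo1 GOF and 11.9% in WT.

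As a share of the family's CPM per kb, Dcn took 40.3%, 47.3% and 36.3% in Piezo1 GOF replicates 1 to 3 and 25.0%, 30.5% and 19.2% in WT replicates 1 to 3. The groups were separate (two-sided exact permutation p = 0.1; 0.2 with Benjamini-Hochberg adjustment over 10 genes). Podn took 0.274 ± 0.123% in Piezo1 GOF and 0.933 ± 0.0928% in WT, Aspn 0.713 ± 0.0767% in Piezo1 GOF and 2.72 ± 1.80% in WT, and Prelp 5.62 ± 1.21% in Piezo1 GOF and 9.11 ± 3.31% in WT (SD, n = 3 each; exact permutation p = 0.1 for each). Omd took 0.687 ± 0.444% in Piezo1 GOF and 0.213 ± 0.0163% in WT, separate in the other direction (SD, n = 3 each; exact permutation p = 0.1). A share depends on the other genes as well: the CPM levels of Podn and Aspn overlapped between genotypes, and those of Prelp were separate and higher in Piezo1 GOF. Fmod (26.9 ± 5.17% in Piezo1 GOF and 34.0 ± 3.04% in WT; exact permutation p = 0.3) and Bgn (15.8 ± 2.41% in Piezo1 GOF and 21.8 ± 6.08% in WT; exact permutation p = 0.3) did not separate.

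**Figure D4:**
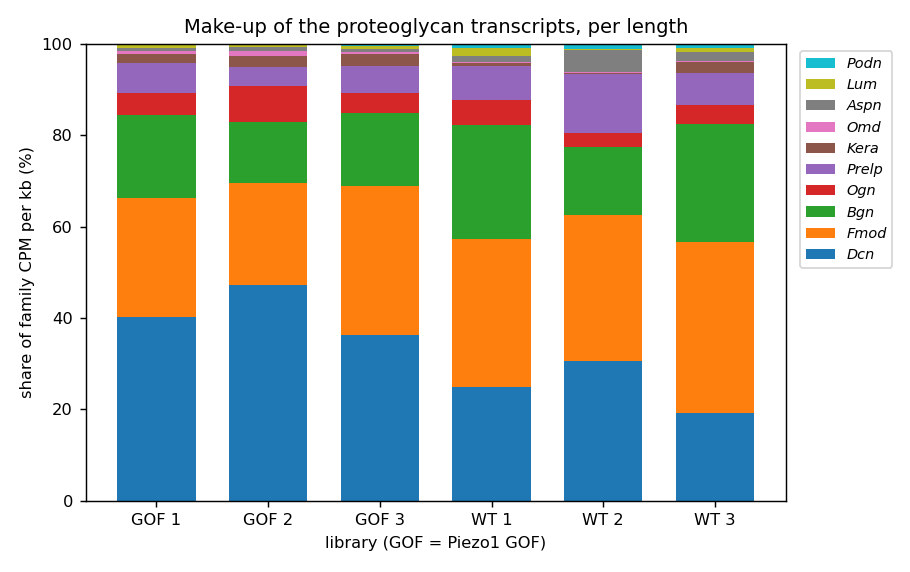
Share (%) of each of the 10 genes in the family's summed CPM per kb, stacked to 100% for each library. Dcn takes 36.3% to 47.3% in the Piezo1 GOF libraries and 19.2% to 30.5% in WT, while the thin Podn band spans 0.142% to 0.385% in Piezo1 GOF and 0.845% to 1.03% in WT.

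Ratios between members within a library, which do not depend on how libraries are scaled, were taken for 8 chosen pairs. The log2 ratio of counts (with 0.5 added) was compared by the two-sided exact permutation test, with 3 pairs separate and lower in Piezo1 GOF, 2 separate and higher, and 3 overlapping. The smallest possible p of 0.1 was reached by the 5 separate pairs (0.16 after adjustment over 8), so no pair passed. Kera over Lum was 1.89, 1.93 and 1.69 in Piezo1 GOF replicates 1 to 3 and -1.17, -0.04 and 1.32 in WT replicates 1 to 3. The difference of 1.80 corresponds to 3.49-fold (1.20 on the log2 scale without WT replicate 1 and 2.44 without WT replicate 3), and of all genes 0.438% had a ratio to Lum that was separate and higher in the mutant (3.54% separate and lower). Omd over Fmod was -5.85, -4.74 and -7.34 in Piezo1 GOF and -7.72, -7.81 and -7.81 in WT. This ratio was nearly constant in WT and variable in the mutant, with a difference of 1.81 (1.19 without Piezo1 GOF replicate 2), and 0.936% of genes had a ratio to Fmod that was separate and higher (61.8% separate and lower). The ratios to Dcn of Bgn (difference -1.18), Aspn (-2.48) and Podn (-2.63) were lower in the mutant without overlap, as were those of 91.2% of all genes (0.052% were separate and higher). Lum over Fmod differed by 0.0096 (exact permutation p = 1), Prelp over Fmod by -0.31 (p = 0.6) and Ogn over Omd by -1.05 (p = 0.2), within the overlap of the libraries.

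Set against the type I collagen chains that they coat, most members were lower in the mutant, and so were most genes. Col1a1 was at 4352, 4708 and 3821 CPM in Piezo1 GOF replicates 1 to 3 and at 1894, 117 and 1452 CPM in WT replicates 1 to 3, and Col1a2 at 6963, 13787 and 7725 CPM in Piezo1 GOF and at 3429, 171 and 2222 CPM in WT. The log2 ratio to the mean of both chains was separate and lower for 6 of the 10 members (Bgn, Fmod, Lum, Prelp, Aspn and Podn), against 88.4% of all genes (0.0149% were separate and higher), and overlapped for the other 4 (Dcn, Kera, Ogn and Omd). Bgn over type I collagen was -1.60, -1.61 and -1.42 in Piezo1 GOF and -0.64, 1.62 and -0.54 in WT, a difference of -1.69 (exact permutation p = 0.1; 0.167 after adjustment over 10). Dcn over type I collagen was 0.37, 1.04 and 0.57 in Piezo1 GOF and 0.18, 3.47 and -0.15 in WT. Its difference of -0.51 (p = 1 by the exact permutation test) turned to 0.64 without WT replicate 2, the library with little type I collagen, in which all 10 members had their highest WT ratio. Without that library the differences were -2.07 for Podn, -1.49 for Aspn, -1.22 for Lum, -0.95 for Bgn, and -0.65 for both Fmod and Prelp.

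**Figure D5:**
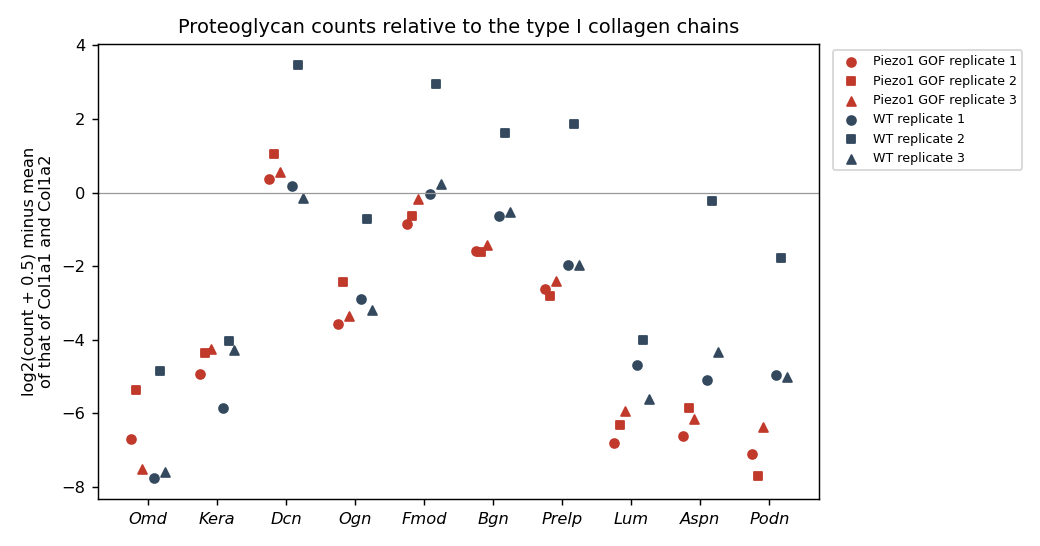
Log2(count + 0.5) of each of the 10 genes minus the mean of that of Col1a1 and Col1a2, in each library. WT replicate 2 (dark squares) lies above the other WT libraries for all 10 genes, and the mutant points of Bgn, Fmod, Lum, Prelp, Aspn and Podn lie below all WT points.

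Of 9 further genes with leucine-rich repeats, kept outside the 10, 4 had enough counts to be tested and 0 passed the adjusted test. Their log2 fold changes had a median of 1.72, and 3 of the 4 had an unadjusted p under 0.05 as higher, against 10.2% of all genes. Ecm2, a leucine-rich matrix protein, was at 334 ± 165 CPM in Piezo1 GOF and 81.7 ± 25.6 CPM in WT (SD, n = 3 each; log2 fold change 2.03 ± 0.40; edgeR adjusted p = 0.0877). Tsku, a secreted leucine-rich protein that binds signalling ligands, had 1.41 ± 0.31 (edgeR adjusted p = 0.104). Chondroadherin (Chad), which binds collagen and integrin in cartilage, was at 13738, 20953 and 7209 CPM in Piezo1 GOF and at 3561, 465 and 2180 CPM in WT. Its log2 fold change was 2.76 ± 0.81 (edgeR adjusted p = 0.155). The mean of Chad was 13967 CPM in Piezo1 GOF and 2069 CPM in WT, against 10562 and 2025 CPM for Dcn. The sums, shares and ranks of the family above leave Chad out. Epyc, Optc, Nyx, Podnl1 and Nepn had too few counts to be tested.

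For the enzymes that build chondroitin and dermatan sulfate chains, values were mostly positive. Of 15 tested genes of this list, 14 had positive values with a median log2 fold change of 0.68, 6 had an unadjusted p under 0.05 as higher, against 10.2% of all genes, and 0 passed the adjusted test. The dermatan sulfate epimerase gene Dse was at 115 ± 56.5 CPM in Piezo1 GOF and 40.2 ± 8.84 CPM in WT (SD, n = 3 each; log2 fold change 1.51 ± 0.35; edgeR adjusted p = 0.110). The chondroitin sulfotransferase gene Chst11 was at 25.8 ± 3.42 CPM in Piezo1 GOF and 12.2 ± 2.67 CPM in WT (log2 fold change 1.07 ± 0.24; edgeR adjusted p = 0.106). Csgalnact2, for an N-acetylgalactosaminyltransferase that starts the chain, was at 108 ± 38.6 CPM in Piezo1 GOF and 50.2 ± 7.49 CPM in WT (1.11 ± 0.28; edgeR adjusted p = 0.127). Of 7 genes that supply sulfate and sugar donors, 5 were positive and 4 had an unadjusted p under 0.05 as higher (10.2% of all genes), with Ugdh, which makes UDP-glucuronate, at 1.26 ± 0.32 (edgeR adjusted p = 0.127). The linkage region enzymes (7 tested, median 0.39) and the keratan sulfate enzymes (7 tested, median 0.33) had smaller medians. At an unadjusted p under 0.05, 1 linkage region and 0 keratan sulfate genes were higher, against 10.2% of all genes. Chst5, a keratan sulfate sulfotransferase gene, had the larger value of 1.71 ± 0.84 (edgeR adjusted p = 0.289) and was measured at only 2.63 ± 0.866 CPM in Piezo1 GOF and 0.821 ± 0.966 CPM in WT (SD, n = 3 each). No list was set against another by a test.

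Among 10 tested proteases that cleave core proteins of this kind, 0 passed, 3 had an unadjusted p under 0.05 as higher and 1 as lower, against 10.2% and 9.59% of all genes. The aggrecanase Adamts5 was at 168 ± 2.33 CPM in Piezo1 GOF and 59.1 ± 16.1 CPM in WT (SD, n = 3 each). Its log2 fold change was 1.51 ± 0.25 (edgeR adjusted p = 0.0572), and Htra1, a serine protease, had 1.42 ± 0.34 (edgeR adjusted p = 0.117). Mmp3 had the largest value, 3.63 ± 0.99 (edgeR adjusted p = 0.140), with 10.1, 14.7 and 92.9 CPM in Piezo1 GOF replicates 1 to 3 and 3.29 ± 2.67 CPM in WT. The lower gene was Adamts1, at -0.99 ± 0.33 (edgeR adjusted p = 0.178), whose groups overlapped. Of 13 tested ligands and receptors that these proteins bind, 0 passed and 4 had an unadjusted p under 0.05, all higher (10.2% of all genes). Tgfb1 was at 43.9 ± 12.1 CPM in Piezo1 GOF and 15.3 ± 4.38 CPM in WT (SD, n = 3 each; log2 fold change 1.52 ± 0.30; edgeR adjusted p = 0.0877). Tgfb3 was at 351 ± 21.8 CPM in Piezo1 GOF and 212 ± 39.8 CPM in WT (0.73 ± 0.25; edgeR adjusted p = 0.185), and the innate receptor gene Tlr2 had a log2 fold change of 1.14 ± 0.41 (edgeR adjusted p = 0.197). Of 11 fibrillar collagens, 0 passed, all 11 were positive with a median log2 fold change of 1.09, and 5 had an unadjusted p under 0.05 as higher (10.2% of all genes). Of 5 collagens of types VI, XII and XIV, 0 passed and 4 were positive, with a median of 0.79. At an unadjusted p under 0.05, 1 of the 5 was higher, against 10.2% of all genes.

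The 8 tenocyte markers of the tissue check were all separate and higher in Piezo1 GOF, against 13.6% of all genes. Their median log2 fold change was 1.82, and 0 passed the adjusted test. Several of the 10 proteoglycan genes are also made outside tendon fibroblasts, so markers of other cells are given beside them. Of 6 tested osteoblast markers, 0 passed and 5 were separate and higher, against 13.6% of all genes, with a summed level of 1716 to 3226 CPM in Piezo1 GOF and 91.8 to 408 CPM in WT, most of it from Spp1 and Ibsp. The share of this list was 0.169%, 0.355% and 0.183% of counts in Piezo1 GOF replicates 1 to 3 and 0.0446%, 0.00836% and 0.0212% in WT replicates 1 to 3. It was highest in Piezo1 GOF replicate 2, which had the highest level of 9 of the 10 members. This was not particular to osteoblast markers. The tenocyte share was 1.77%, 3.14% and 2.08% in Piezo1 GOF replicates 1 to 3, and the chondrocyte share 0.0213%, 0.0313% and 0.0209%. The macrophage share was highest in Piezo1 GOF replicate 3 (0.0867%). Of 8 tested chondrocyte markers, 0 passed, 8 were positive and 2 were separate and higher (13.6% of all genes), with a summed level of 196 to 284 CPM in Piezo1 GOF and 74.9 to 115 CPM in WT. Of 12 macrophage markers, 0 passed and 11 were separate and higher (13.6% of all genes), with 657 to 811 CPM in Piezo1 GOF and 173 to 271 CPM in WT. No marker of these 3 lists was at 0 in every library. Endothelial markers made up 0.0482% to 0.0708% of counts in Piezo1 GOF and 0.0590% to 0.0926% in WT, and adipocyte markers 0.118% to 0.192% in Piezo1 GOF and 0.108% to 0.181% in WT. Of the 6 adipocyte markers, 0 passed and 5 were positive, with a median log2 fold change of 1.15. At an unadjusted p under 0.05, 4 were higher and 1 lower (Lpl), against 10.2% and 9.59% of all genes. Lep, the gene of the fat hormone leptin, had a log2 fold change of 2.5 ± 0.44 (edgeR adjusted p = 0.0572). Lpl, the most abundant of the list, was the one with a negative value, at 674 ± 143 CPM in Piezo1 GOF and 1212.5 ± 407 CPM in WT (SD, n = 3 each). Their part in the levels of Omd, Ogn and the other members was not tested.

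Of 6647 other genes with a mean of at least 20 CPM, the 6 whose log2 CPM ran most closely with the mean of the 10 members over the 6 libraries were Sox5, Hexdc, Syap1, Adk, Thy1 and Xiap. Their Pearson correlation with that mean was 0.995 to 0.997, a description of 6 libraries that fall into 2 genotypes, for genes picked as the closest of many. Thy1, a surface glycoprotein of fibroblasts, was at 97.5, 202 and 112 CPM in Piezo1 GOF and at 61.1, 13.7 and 42.0 CPM in WT, and Sox5, a chondrogenic transcription factor, at 23.0, 40.4 and 25.9 CPM in Piezo1 GOF and at 17.3, 7.03 and 14.5 CPM in WT.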

How the data were processed

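The table deposited by the authors holds expected counts (estimated counts) per gene. The authors' values carry no depth or length scaling, judging by the numbers themselves, and 7.80% to 8.88% of values per library are fractional (any remainder, with no tolerance). The submitters' processing notes name STAR, RSEM, bcl2fastq and edgeR with build mm10, and their versions, the annotation and the strand setting are unknown here. Per the labels' protocols, total RNA was made into libraries with the RamDA-seq kit.

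Expected counts were rounded and filtered with filterByExpr of edgeR (minimum count 10), leaving 13466 of 24411 genes, with TMM scaling and the quasi-likelihood F-test (common dispersion 0.113, threshold 0.05). Coordinates and lengths came from GENCODE mouse release 21, which matched 95.6% of symbols. Ratios used a pseudocount of 0.5 and exact permutation tests over libraries. Libraries of one genotype differed far beyond sampling noise (chi-square over its degrees of freedom 41.5 to 143). Members and lists were chosen with earlier results of these data known. Named genes were the members, Piezo1, Scx, Col1a1, Col1a2, genes within a cluster's span, the 6 most alike genes, and up to 3 per list with the smallest p, not all of which are printed. The chain was tested on simulated data. Alternatives were other scaling, no filter, DESeq2, limma voom, a replicate block, each library left out, a muscle covariate, removal of muscle markers or of Rn45s and Lars2, and robust dispersion. Software was R 4.3.3, edgeR 4.0.16, limma 3.58.1, DESeq2 1.42.0, matplotlib 3.10.9, pandas 2.3.3, scipy 1.17.1, numpy 2.4.6 and Python 3.11.15.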

Additional observations from a re-analysis of the deposited data

How the results depend on the processing

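With all 6 libraries edgeR called 2 genes higher and 0 lower, of which 0 were members. The counts were 141 higher and 24 lower with no filter on low counts (1 member, Omd). DESeq2 gave 514 and 377 (5 members), and limma voom 97 and 19 (1 member, Dcn). With the muscle covariate 0 were higher. There 2 members were higher at an unadjusted p under 0.05, as were 4.2% of all genes. Without the covariate these were 6 members and 10.2% of all genes. Leaving out 1 library gave 0 to 164 higher and 0 to 43 lower, both highest without WT replicate 1, with 0 members each time. At an unadjusted p under 0.05, 4 to 8 members were higher, against 7.03% to 13.1% of all genes. The replicate block gave 0 genes, 0 members and a member median of 1.24 against 1.08. Deviations of same-numbered libraries correlated at -0.21, -0.14 and -0.053. Since these deviations are centred within 3 libraries, they cannot settle whether same-numbered libraries shared a batch. The member median lay between 0.66 and 1.63 over all alternatives. Dcn, Bgn, Fmod, Kera, Ogn, Prelp and Omd kept a positive fold change in all 16. Lum turned to -0.20 with the muscle covariate, Aspn to 0.18, 0.026 and 0.15 without Piezo1 GOF replicate 1, Piezo1 GOF replicate 3 and WT replicate 2 (range -0.49 to 0.18 with a library left out), and Podn to 0.018 without WT replicate 1 (range -0.60 to 0.018). Among ratios, Lum over Fmod turned to -0.0049 with a pseudocount of 5 and ranged from -0.56 to 0.59 with a library left out, and Prelp over Fmod ranged from -0.54 to 0.0071, the last without WT replicate 2. Over type I collagen, Dcn turned to 0.64 without WT replicate 2 (range -1.17 to 0.64), Kera to -0.35 without WT replicate 1 (range -0.35 to 0.55), and Omd to -0.38, -0.31 and -0.23 without Piezo1 GOF replicate 2, WT replicate 1 and WT replicate 3 (range -0.38 to 1.14). The causes were not tested. With 3 libraries per genotype, permutation tests cannot go below 0.1.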
